A study of Mus musculus with 4 samples.

Results

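The phagocyte NADPH oxidase is described here through 5 genes of its subunits, Cybb, Cyba, Ncf1, Ncf4 and Rac2, out of 37008 genes and transcripts on the array. The members were chosen by name: every non-control probe whose gene name in the array files equals one of these symbols was taken, which gave 10 probes, 2 for Cybb, 3 for Cyba, 3 for Ncf1 and 1 each for Ncf4 and Rac2. All 10 probes were well above background on all 4 arrays. Messenger RNA was measured on 4 Agilent 1-colour arrays in RAW264.7, an established mouse macrophage line. The 4 groups were untreated wild-type cells, wild-type cells given lipopolysaccharide (LPS, a bacterial molecule sensed by Toll-like receptor 4), untreated cells labelled Mfp2-/-, and Mfp2-/- cells treated with LPS. Mfp2 is the peroxisomal multifunctional protein of fatty acid beta-oxidation encoded by Hsd17b4, and the Mfp2-/- cells are called knockout here. How much LPS was given and for how long, how the knockout was made and whether the cells are 1 clone is not given in the sources used here. With 1 array in each group, a difference between 2 arrays has no replicate check and gets no p-value.

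The oxidase of phagocytes makes superoxide, which feeds the killing of engulfed microbes and also acts in signalling. Its catalytic core sits in the membrane as flavocytochrome b558, a pair made of gp91phox, from Cybb, and p22phox, from Cyba. Gp91phox carries electrons from NADPH across the membrane to oxygen, and p22phox stabilises gp91phox and offers a docking site. In resting cells the organiser p47phox, from Ncf1, and the adaptor p40phox, from Ncf4, wait in the cytosol. On activation p47phox is phosphorylated and brings the complex to p22phox, and the small GTPase Rac2 joins it in its GTP-bound form. Inherited loss of the core or cytosolic subunits causes chronic granulomatous disease, in which phagocytes fail to make superoxide.

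Promoter sequences are shown for Cybb, Cyba and Ncf1, and their part in the LPS responses was not tested. Of the 5 members, 3 matched a promoter in the RefSeq-derived table of the mouse build GRCm38.p6, and Ncf4 and Rac2 are named only. Each line below gives the 250 bases before the annotated start, on the strand of the gene, with matches to searched motifs in capitals. The 3 windows lie on the minus strand at chrX:9469325-9469574 for Cybb, chr8:122432941-122433190 for Cyba and chr5:134229626-134229875 for Ncf1.
Cybb: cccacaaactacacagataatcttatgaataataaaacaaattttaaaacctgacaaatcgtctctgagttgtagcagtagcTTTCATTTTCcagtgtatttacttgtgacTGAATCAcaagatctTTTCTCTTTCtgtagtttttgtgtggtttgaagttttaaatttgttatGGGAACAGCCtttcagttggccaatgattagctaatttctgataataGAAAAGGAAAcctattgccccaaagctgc
Cyba: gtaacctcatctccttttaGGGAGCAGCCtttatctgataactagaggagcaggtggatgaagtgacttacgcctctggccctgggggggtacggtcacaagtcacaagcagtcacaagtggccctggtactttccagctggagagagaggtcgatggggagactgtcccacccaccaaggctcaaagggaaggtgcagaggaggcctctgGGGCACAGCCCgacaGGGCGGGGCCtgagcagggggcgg
Ncf1: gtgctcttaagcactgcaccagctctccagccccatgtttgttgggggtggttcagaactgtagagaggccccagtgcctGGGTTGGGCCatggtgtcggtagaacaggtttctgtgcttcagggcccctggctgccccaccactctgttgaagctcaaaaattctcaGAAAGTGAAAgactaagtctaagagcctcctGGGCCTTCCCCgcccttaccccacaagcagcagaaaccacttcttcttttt
The motifs were searched on both strands: an interferon-regulated element as GAAA, any 2 bases and GAAA, NF-kB as GGG, any 5 bases and CC, AP-1 as TGANTCA, the core bound by PU.1 as GAGGAA and C/EBP as TTGCNNAA. Of 32851 windows of the same length in the table, 2.98% held the interferon-regulated letters, 45.8% those of NF-kB, 6.75% those of AP-1, 23.3% those of PU.1 and 9.56% those of C/EBP. The Cybb window held the interferon-regulated letters at 3 places, from 168 to 159, from 124 to 115 and from 29 to 20 bases before the start, NF-kB letters from 76 to 67 and AP-1 letters from 139 to 133. The Ncf1 window held interferon-regulated letters at 1 place, from 82 to 73, and NF-kB letters from 170 to 161 and in overlapping matches on both strands from 51 to 41. The Cyba window held only NF-kB letters, from 231 to 222, in overlapping matches from 39 to 29, and from 24 to 15. The letters searched for PU.1 and C/EBP were in none of the 3 windows. A match describes the sequence and is no evidence of binding.

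Values below are signals on the linear scale, or scaled levels, which are log2 of the signal minus the 75th percentile of the non-control probes of that array. Before scaling that percentile was a signal of 358 in untreated wild type, 323 in LPS-treated wild type, 370 in untreated knockout and 303 in LPS-treated knockout, so the arrays differed in brightness with LPS. Signals of different probes are not set against each other, since each probe has its own response, and summed signals of marker lists are compared only between arrays. The 2-fold rule calls a gene from 1 representative probe, at a difference of 1 or more on the log2 scale. The spread between repeated spots of a probe gave a technical SD for a difference between 2 arrays. For probes above the 75th percentile it was 0.0692 for the LPS response of wild type, 0.123 for that of knockout, 0.0896 between untreated genotypes, 0.110 between LPS-treated genotypes and 0.142 for the difference of the LPS responses. For dimmer probes it was between 0.284 and 0.526, from only 4 to 6 probes. These SDs cover noise within an array and not the spread between cultures.

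Each array had 59305 non-control spots, of which 47.4% to 49.7% passed the flag for signal well above background and 0 were saturated. The probe for Hsd17b4 on chromosome 18 read 4482 in untreated wild type, 2915 in LPS-treated wild type, 2545 in untreated knockout and 1217 in LPS-treated knockout. Its scaled level differed between knockout and wild type by -0.86 without LPS and by -1.17 with LPS, and it was above background on all 4 arrays, so the transcript was lower and not lost at this probe. Of 10 macrophage markers, 9 were above background on all 4 arrays, all but Mertk, with a summed signal between 398423 and 453125. Single markers differed between groups: Adgre1 was 2.10 and 3.04 higher with LPS in wild type and knockout, Csf1r differed by -1.42 with LPS in knockout, Fcgr1 was 1.61 higher in untreated knockout than in untreated wild type, and Mertk at least 6.65-fold higher. Cd14 also passed the 2-fold rule as higher with LPS in both genotypes and Fcgr1 in wild type, while Mertk passed it as lower with LPS in knockout. The part of these markers in the results below was not tested. Of 8 neutrophil markers, which matter here because neutrophils carry the same oxidase, Ly6g, Mpo, Ltf, S100a9 and Cxcr2 were on no array above background, Elane and S100a8 were on all 4, and the summed signal was between 261 and 316. The neutrophil marker Camp passed the 2-fold rule as higher with LPS in knockout. Summed signals were between 680 and 748 for 4 T cell markers, 18.6 and 52.1 for 3 B cell markers, 13.9 and 24.8 for 3 fibroblast markers and 12.7 and 51.1 for 3 epithelial markers. Of the T cell markers, Cd3e and Cd4 were above background on all 4 arrays. In RNA from whole samples, fewer cells of a type and less RNA per cell cannot be told apart.

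At the representative probes, Cybb had the largest LPS response of the 5 genes. Its transcript was close to 2-fold higher with LPS in both genotypes, and it was the member whose LPS term passed the test described below. Its representative probe (A_52_P444628, NM_007807, chrX:9014314-9014373 on the minus strand, in the mm9 coordinates of the files) read 4506 in untreated wild type, 7900 in LPS-treated wild type, 5606 in untreated knockout and 9109 in LPS-treated knockout. Both LPS-treated arrays were above both untreated ones, and within each treatment the knockout was the higher. The scaled levels in the same order were 3.65, 4.61, 3.92 and 4.91. The LPS response was 0.96 in wild type, a 1.95-fold difference, and 0.99 in knockout, 1.98-fold, both just under the 2-fold rule. Of 16087 genes above background on both wild-type arrays, 91.2% had a lower LPS response, and of 15961 in knockout, 89.6% did.

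The second Cybb probe, which lies 1038 bases away in the same transcript (A_55_P2082733, chrX:9013216-9013275), gave the same order of the groups. It read 3838 in untreated wild type, 7147 in LPS-treated wild type, 4743 in untreated knockout and 8648 in LPS-treated knockout. Its responses of 1.05 (2.07-fold) and 1.15 (2.22-fold) passed the 2-fold rule in both genotypes. The gene thus lay near the threshold, and both the probe and the scaling moved it across. With spike-in centring the second probe had 0.84 and 0.93 and the representative probe 0.75 and 0.76, all under 2-fold, and with quantile normalization the second probe had 0.93 in wild type and 1.01 in knockout. For both probes the order from low to high was untreated wild type, untreated knockout, LPS-treated wild type, LPS-treated knockout, and each step was over 2 technical SDs. The knockout level exceeded wild type by 0.27 without LPS and 0.29 with LPS at the representative probe, and by 0.26 and 0.36 at the second probe. The LPS responses of the 2 genotypes differed by 0.03 and 0.10, both less than 1 technical SD.

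**Figure D1:**
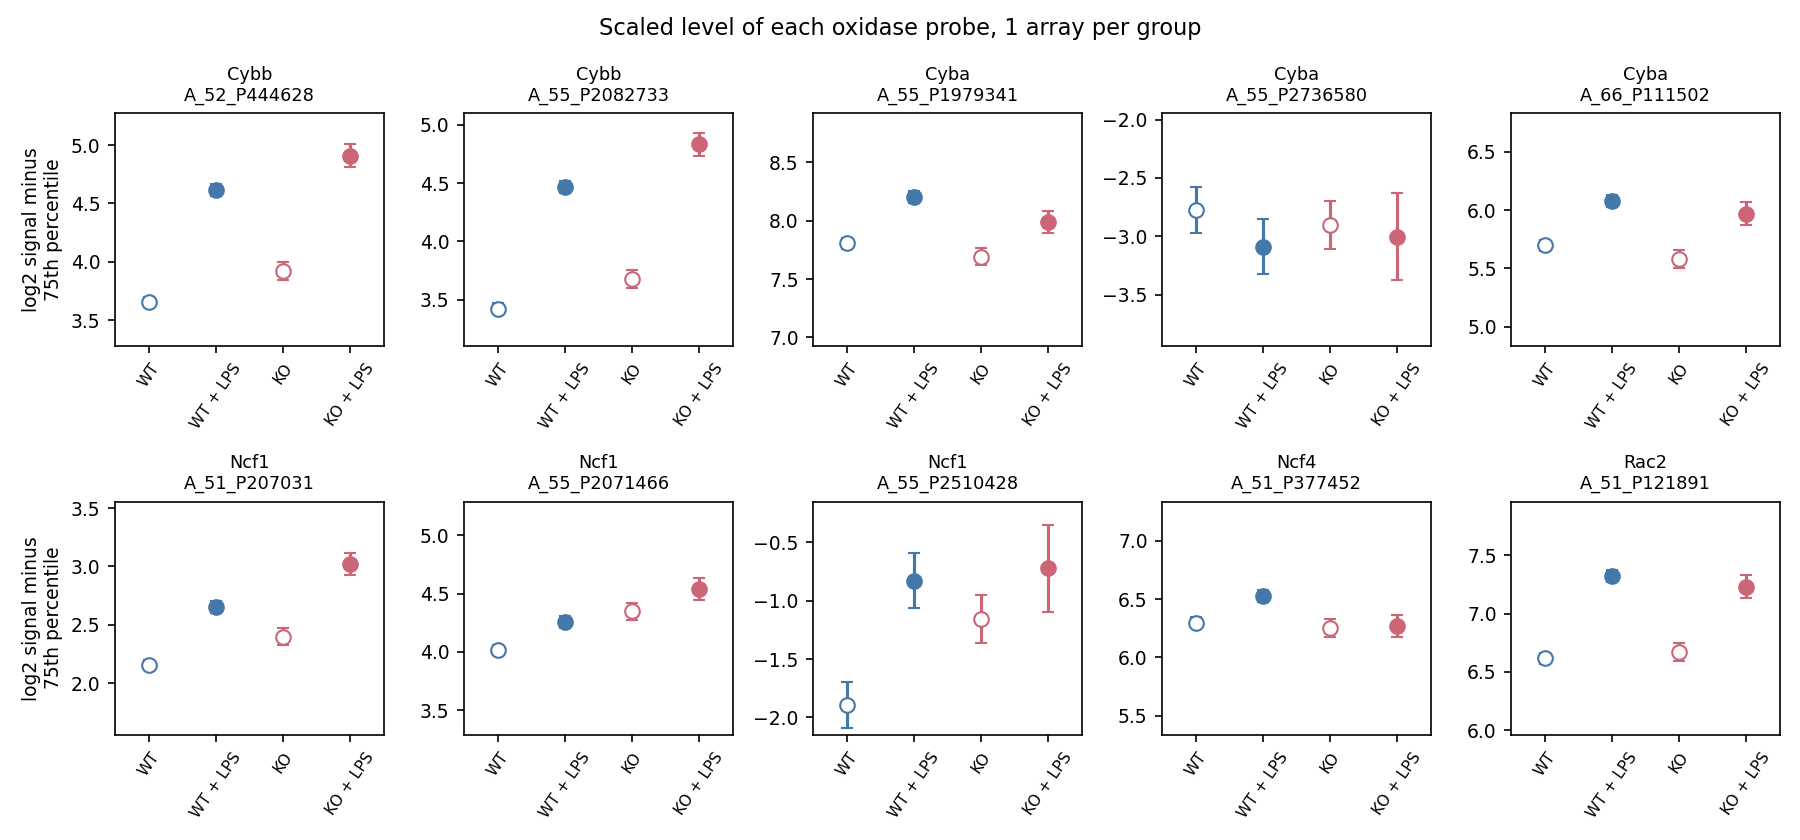
Scaled level (log2 signal minus the 75th percentile of the array) of each of the 10 oxidase probes in the 4 groups, with wild type (WT) in blue, knockout (KO) in red, untreated cells as open and LPS-treated cells as filled circles. Each point is 1 array, bars are the technical SD of a spot, and every panel has its own range; both Cybb probes are highest in LPS-treated knockout, and the dim probes of Cyba and Ncf1 have the widest bars.

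Cyba, the partner of gp91phox in the membrane, was slightly higher with LPS at its bright probes. Its representative probe (A_55_P1979341, NM_007806, chr8:124948726-124948785 on the minus strand) read 80178 in untreated wild type, 95197 in LPS-treated wild type, 76565 in untreated knockout and 77188 in LPS-treated knockout. The raw signal in knockout was thus nearly the same with and without LPS, while the 75th percentile of the LPS-treated array was lower, so the scaled level was higher with LPS. Scaled levels were 7.81, 8.21, 7.69 and 7.99, which gave LPS responses of 0.40 in wild type and 0.30 in knockout. Over 7 alternatives these ran from 0.16 to 0.41 and from 0.07 to 0.30, with 0.19 and 0.07 under quantile normalization. Against wild type the knockout differed by -0.11 without LPS and by -0.21 with LPS, both within 2 technical SDs, the second only just (-1.96). Over 7 alternatives the difference with LPS ran from -0.28 with spike-in centring to -0.08 with the mean of its probes, with -0.26 under quantile normalization. Whether it exceeded 2 technical SDs thus depended on the processing. In the main setting, no step between neighbours in the order from untreated knockout through untreated wild type and LPS-treated knockout to LPS-treated wild type exceeded 2 technical SDs. The LPS responses, which are not steps between neighbours, were 5.75 technical SDs in wild type and 2.40 in knockout in that setting.

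A second Cyba probe (A_66_P111502, NM_001301284) covers 60 transcript bases that span 411 bases of the genome, chr8:124951180-124951590, so it crosses a spliced intron. Its sequence is shown because the match depends on spliced RNA, and it has no stop codon in any of the 3 frames.
A_66_P111502: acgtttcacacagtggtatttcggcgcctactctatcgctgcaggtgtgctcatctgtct
This probe read 18585 in untreated wild type, 21797 in LPS-treated wild type, 17733 in untreated knockout and 19006 in LPS-treated knockout. Its LPS responses were 0.38 and 0.39, and the knockout differed from wild type by -0.11 in both treatments, so its order of groups was that of the representative probe. The third probe (A_55_P2736580, AK154184, chr8:124953268-124953327) was dim, with 52.3 in untreated wild type, 37.9 in LPS-treated wild type, 49.3 in untreated knockout and 37.8 in LPS-treated knockout. Its LPS responses of -0.31 and -0.10 had the opposite sign, and no step of its order exceeded 2 technical SDs.

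Ncf1, which encodes the organiser p47phox, had a higher level in knockout than in wild type at all 3 of its probes, with and without LPS, by between 0.24 technical SDs at a dim probe and 3.68 at the representative one. Its representative probe (A_55_P2071466, NM_001286037, chr5:134696380-134696439 on the minus strand) read 5792 in untreated wild type, 6162 in LPS-treated wild type, 7521 in untreated knockout and 7049 in LPS-treated knockout. Both knockout arrays were above both wild-type arrays, and in knockout the raw signal was lower with LPS. Scaled levels were 4.02, 4.26, 4.35 and 4.54, so the LPS response was 0.24 in wild type and 0.19 in knockout. Over 7 alternatives it ran from 0.03 with spike-in centring to 0.60 with the mean of its probes in wild type, and from -0.03 to 0.41 under the same settings in knockout. The knockout exceeded wild type by 0.33 without LPS and 0.28 with LPS, more than 2 technical SDs in each case. Among 16407 genes compared between the untreated genotypes, 86.2% had a lower difference than Ncf1.

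The probe for the Ncf1 transcript NM_010876 (A_51_P207031, chr5:134697399-134697458) read 1595 in untreated wild type, 2029 in LPS-treated wild type, 1951 in untreated knockout and 2463 in LPS-treated knockout. Its LPS responses were larger, 0.50 in wild type and 0.62 in knockout, and its genotype differences were 0.24 and 0.37. Here each step of the order, untreated wild type, untreated knockout, LPS-treated wild type, LPS-treated knockout, exceeded 2 technical SDs. The probe for the non-coding transcript NR_104383 (A_55_P2510428, chr5:134695983-134696042) was dim and read 96.1 in untreated wild type, 182 in LPS-treated wild type, 166 in untreated knockout and 184 in LPS-treated knockout. Its untreated wild-type array stood below the other 3, which gave an LPS response of 1.07 (2.10-fold) in wild type and 0.43 in knockout, against technical SDs of 0.308 and 0.426. The 3 Ncf1 probes thus agreed on the sign of both LPS responses and both genotype differences and disagreed on their size.

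Ncf4, which encodes the adaptor p40phox, was measured by a single probe. This probe (A_51_P377452, NM_008677, chr15:78092903-78092962 on the plus strand) read 28178 in untreated wild type, 29684 in LPS-treated wild type, 28185 in untreated knockout and 23424 in LPS-treated knockout. The LPS-treated knockout array was the low one in raw signal. After scaling the levels were 6.30, 6.52, 6.25 and 6.27, and LPS-treated wild type stood above the other 3. The LPS response was 0.23 in wild type and 0.02 in knockout, and the responses differed by -0.21, or 1.46 technical SDs. Against wild type the knockout differed by -0.05 without LPS and by -0.25 with LPS, which is -2.31 technical SDs. The wild-type response ran from 0.01 with spike-in centring to 0.24 over 7 alternatives, with 0.03 under quantile normalization. The knockout response turned negative under 4 of 7 other ways of processing the signals, with a range from -0.21 to 0.09. With a single probe, the mean of probes among these repeats the main value. Quantile normalization and the deposited series table gave nearly the same value, -0.20.

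Rac2, the blood-cell GTPase that activates the assembled complex, had the second largest LPS response of the 5 at the representative probes. The Ncf1 probe A_51_P207031 had 0.50 in wild type, below Rac2, and 0.62 in knockout, above it. With quantile normalization this Ncf1 probe was above Rac2 in both genotypes. The Rac2 probe lies 298489 bases from that of Ncf4 on the same chromosome (A_51_P121891, NM_009008, chr15:78391452-78391511 on the minus strand). It read 35158 in untreated wild type, 51658 in LPS-treated wild type, 37683 in untreated knockout and 45535 in LPS-treated knockout. Both LPS-treated arrays were above both untreated ones, and the genotypes lay close together within each treatment. Scaled levels were 6.62, 7.32, 6.67 and 7.23, with LPS responses of 0.71 (1.63-fold) in wild type and 0.56 (1.47-fold) in knockout. Over 7 alternatives they ran from 0.45 with the deposited series table to 0.72 in wild type, and from 0.29 with quantile normalization to 0.58 in knockout. The knockout differed from wild type by 0.05 without LPS and by -0.09 with LPS, each less than 1 technical SD. In the order of levels only the step from untreated knockout to LPS-treated knockout exceeded 2 technical SDs.

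**Figure D2:**
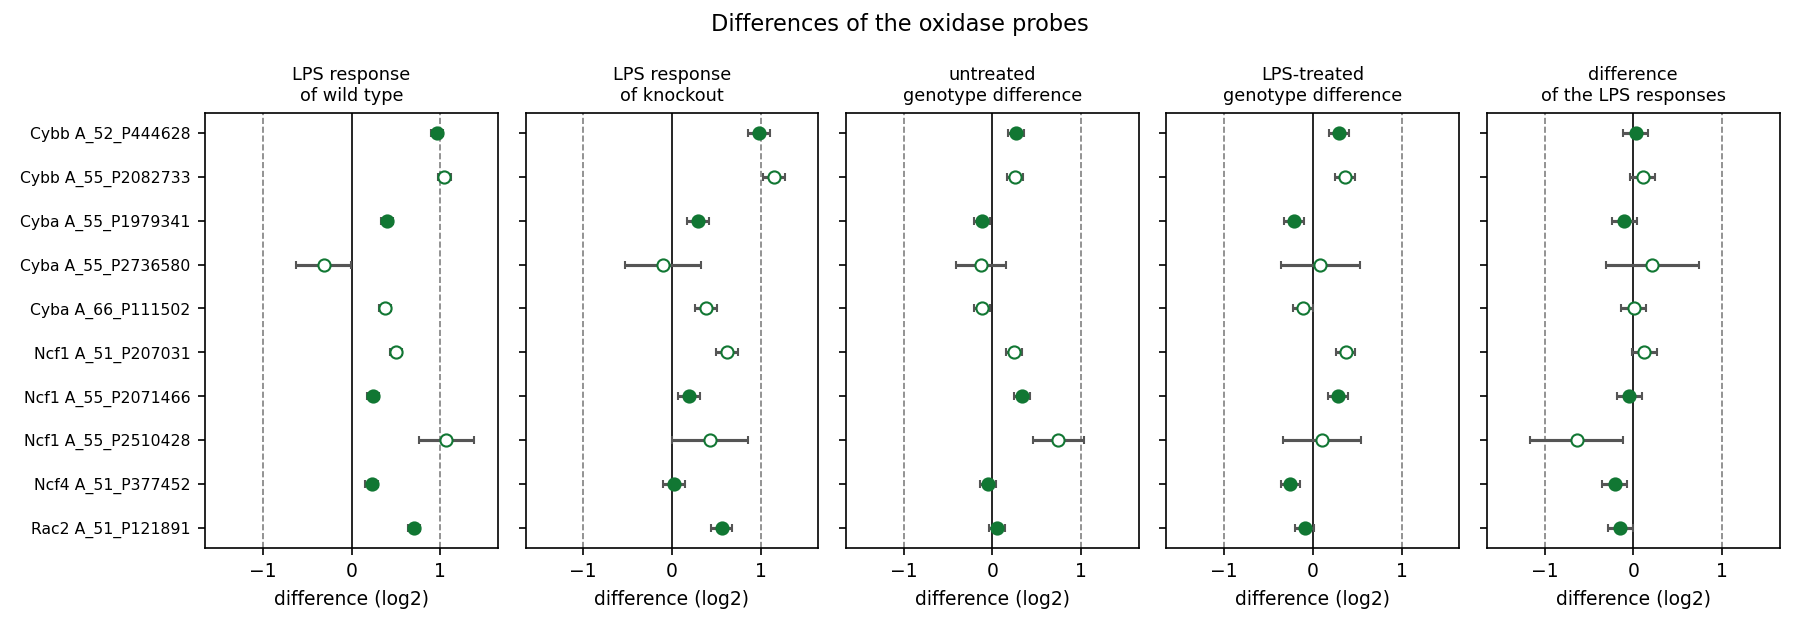
Differences in scaled log2 level of the 10 oxidase probes for the 4 pairs of arrays and for the difference between the LPS responses of knockout and wild type. Filled circles are the representative probe of a gene, open circles its other probes, bars are ±1 technical SD, and dashed lines mark 2-fold; the LPS responses lie above 0 for 9 of 10 probes in each genotype, and the genotype differences lie on both sides of 0.

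Over the representative probes, 5 of 5 genes had an LPS response above 0 in wild type and 5 of 5 in knockout, where Ncf4 was below 0 under 4 of 7 other ways of processing and Ncf1 under 1 (centring on spike-in probes). None was 2-fold higher or lower in either genotype. Among all genes compared, 9.69% were at least 2-fold higher and 8.58% lower with LPS in wild type, and 11.0% higher and 12.5% lower in knockout, which is the background for a count of 0 among 5 genes. The median response of the 5 genes was 0.40 in wild type and 0.30 in knockout, beside medians of 0.02 and 0.04 over 16087 and 15961 genes. At the level of probes, 9 of 10 were above 0 in each genotype. The second Cybb probe and the dim Ncf1 probe were 2-fold higher in wild type, and the second Cybb probe in knockout.

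Between genotypes, 3 of 5 genes were higher in knockout without LPS, of which Rac2 was at or below 0 under 3 of 7 other ways of processing, and 2 of 5 with LPS, with medians of 0.05 and -0.09, beside 0.05 and 0.05 over all genes. None of the 5 passed the 2-fold rule. Of all genes, 3.08% were 2-fold higher and 3.9% lower in untreated knockout, and 1.86% higher and 4.39% lower in LPS-treated knockout. At the representative probes, Cybb and Ncf1 were higher in knockout with and without LPS, by more than 2 technical SDs each time. Cyba and Ncf4 were lower in both, but only Ncf4 with LPS, at -2.31, exceeded 2 technical SDs. Ncf4 without LPS was at -0.52, and Cyba at -1.26 without and -1.96 with LPS. Rac2 lay on opposite sides of 0, with each of its differences under 1 technical SD. For the difference of the LPS responses, 1 of 5 genes was above 0, none passed the 2-fold rule, and the values ran from -0.21 for Ncf4 to 0.03 for Cybb. Of 15516 genes above background on all 4 arrays, 1.69% had a 2-fold larger and 2.91% a 2-fold smaller response in knockout.

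**Figure D3:**
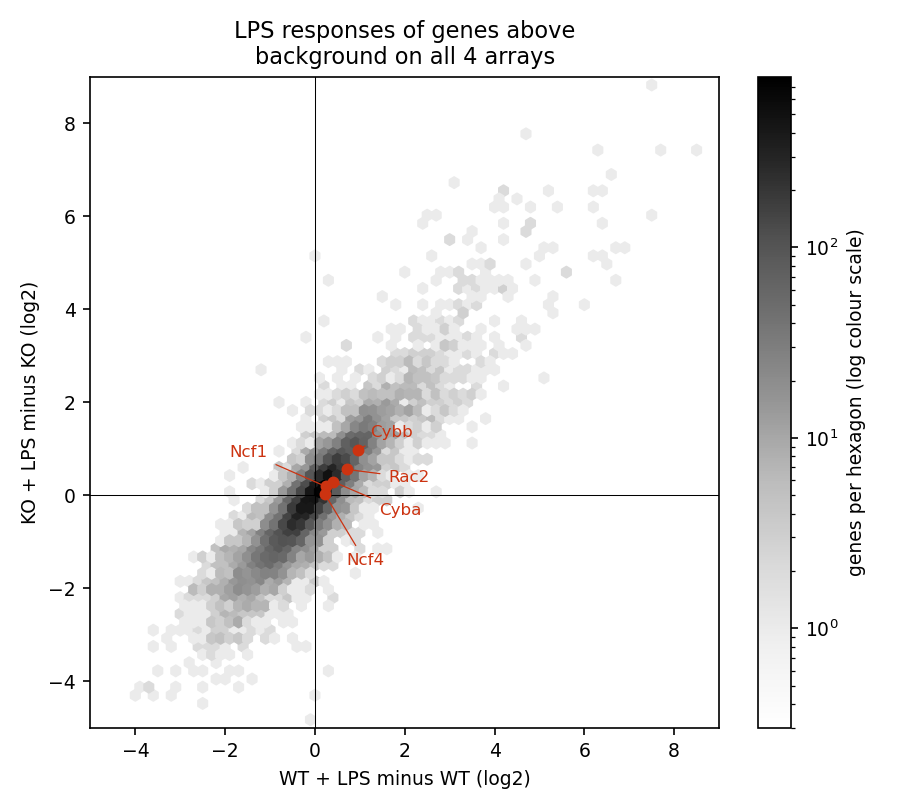
LPS response of wild type (horizontal axis, log2) against LPS response of knockout (vertical axis, log2) for 15516 genes above background on all 4 arrays, drawn as hexagons shaded by the number of genes on a log scale, with the 5 oxidase genes as red dots. Cybb lies at 0.96 and 0.99, Rac2 at 0.71 and 0.56, and the other 3 lie between 0.02 and 0.40 on both axes.

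An additive limma model over the 4 arrays gave the only test this design allows. It has a term for LPS and a term for genotype, takes any difference between the 2 LPS responses as noise, and has 1 residual degree of freedom, with variances moderated across 17365 genes. Signals below background entered the fit as they were, so an adjusted p given beside an "at least" value does not use that bound. The labels give 4 samples and do not say that they come from separate cultures. With 1 array per group, the p-values and SEs rest on how far these samples depart from additive terms, not on a spread between replicates. Of the genes fitted, 11.3% were higher and 11.3% lower with LPS at an adjusted p under 0.05. Cybb rose with LPS by 0.97 ± 0.12 (SE) on the log2 scale (limma, Benjamini-Hochberg adjusted p = 0.0328, between 0.00648 and 0.0399 over 9 alternatives). Rac2 had an LPS term of 0.63 ± 0.13 (SE) and missed the threshold (limma adjusted p = 0.0573, between 0.00716 and 0.123 over the alternatives). It passed with normexp background correction (limma adjusted p = 0.0190), with only genes above background on all 4 arrays (limma adjusted p = 0.0321) and with a trended prior (limma adjusted p = 0.00716). The LPS terms of Cyba, 0.35 (limma adjusted p = 0.135), Ncf1, 0.22 (limma adjusted p = 0.258), and Ncf4, 0.12 (limma adjusted p = 0.518), did not pass, except that Cyba did with the trended prior (limma adjusted p = 0.0148). For the genotype term 0.0% of genes were called in either direction by limma, with 1708 at an unadjusted p under 0.05, and the adjusted p of the 5 members lay between 0.551 and 0.956.

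Apart from Cybc1, the other oxidase genes of the list were near or below background in these cells. Of 10 other catalytic and organiser genes, 6 were above background on at least 1 wild-type array and 5 on at least 1 knockout array. Their median LPS response was 0.27 in wild type and -1.76 in knockout, or 0.27 and -1.20 with genes dim on 1 array set at their bound. These medians rest on different genes and cannot be set against each other. Nox1 and Nox3 were compared only in wild type, and Duox2 only in knockout. The list was spread widely. Cybc1, a chaperone of the membrane core, had LPS responses within the range of the 5 members in each genotype. The organiser and activator of the epithelial oxidase, Noxo1 and Noxa1, were lower with LPS. Cybc1 had responses of 0.42 and 0.63 (limma adjusted p = 0.0814). Noxo1 had responses of -1.38 and -2.01 (limma adjusted p = 0.0337) at signals between 28.2 and 139. Noxa1 had a response of -1.04 in wild type and was at least 3.40-fold lower in knockout (limma adjusted p = 0.0459).

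Nox4, another catalytic subunit, was above background on 3 arrays at signals between 21.6 and 28.1, had an LPS response of 0.12 in wild type and passed the 2-fold rule in no comparison. Nox1, Nox3 and Duox2 were above background on 1 or 2 arrays only. The catalytic subunit Nox1 was at least 3.98-fold higher with LPS in wild type, at a signal of 80.9 on the 1 array where it was above background, and so at least 3.64-fold lower in LPS-treated knockout than in LPS-treated wild type. Duox2 was above background only in untreated knockout, at 55.3, at least 2.38-fold over untreated wild type and at least 2.30-fold over LPS-treated knockout. Nox3 was at least 2.26-fold lower in LPS-treated knockout than in LPS-treated wild type, where it read 47.5. Such signals lie below the 75th percentile of the array, where the technical SD is wide. Duox1, Duoxa1 and Duoxa2 were above background on no array.

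Of 26 regulators of assembly and activation, 25 could be compared, and 5 were higher and 1 lower with LPS in wild type, 4 higher and 1 lower in knockout, beside 9.69% higher and 8.58% lower of all genes in wild type and 11.0% and 12.5% in knockout. Their medians were 0.24 and 0.21. In the additive model 5 of 25 rose and 1 fell with LPS, beside 11.3% of all genes in each direction. The formyl peptide receptors Fpr1 and Fpr2, which sense bacterial peptides and trigger the oxidase, had the largest differences. Fpr2 read 20.2 in untreated wild type, 2557 in LPS-treated wild type, 25.9 in untreated knockout and 4946 in LPS-treated knockout, so it was at least 126-fold higher in wild type and 7.86 higher on the log2 scale in knockout (limma adjusted p = 0.0240). Fpr1 was at least 23.0-fold higher in wild type and at least 50.05-fold in knockout (limma adjusted p = 0.0240, from the signals below background and not these bounds).

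Among the signalling genes of that list, Rap1b, a small GTPase of the Ras family, had responses of 1.39 and 1.44 (limma adjusted p = 0.0269). The tyrosine kinase Syk had 1.45 and 1.27 (limma adjusted p = 0.0288), and Rhog 0.69 and 0.92 (limma adjusted p = 0.0457). Prkcd, a kinase that phosphorylates p47phox, had 1.35 in wild type and 0.59 in knockout (limma adjusted p = 0.0814). Pak1, a kinase activated by Rac, had -1.59 and -2.52 (limma adjusted p = 0.0371), with -0.41 and -1.58 at its other probe. Rac1, the ubiquitous relative of Rac2, had 0.23 and 0.49 (limma adjusted p = 0.154). Between genotypes, Tiam1, an exchange factor for Rac, read 216 in untreated wild type, 252 in LPS-treated wild type, 30.2 in untreated knockout and 14.4 in LPS-treated knockout. Both knockout arrays were well below both wild-type arrays, by -2.89 without LPS and by at least 12.02-fold with LPS (limma adjusted p = 0.181 for the genotype term). Prkca was 1.05 higher in untreated knockout and Fpr2 1.04 higher in LPS-treated knockout, and neither passed the genotype test of limma, with adjusted p = 0.244 and 0.535.

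**Figure D4:**
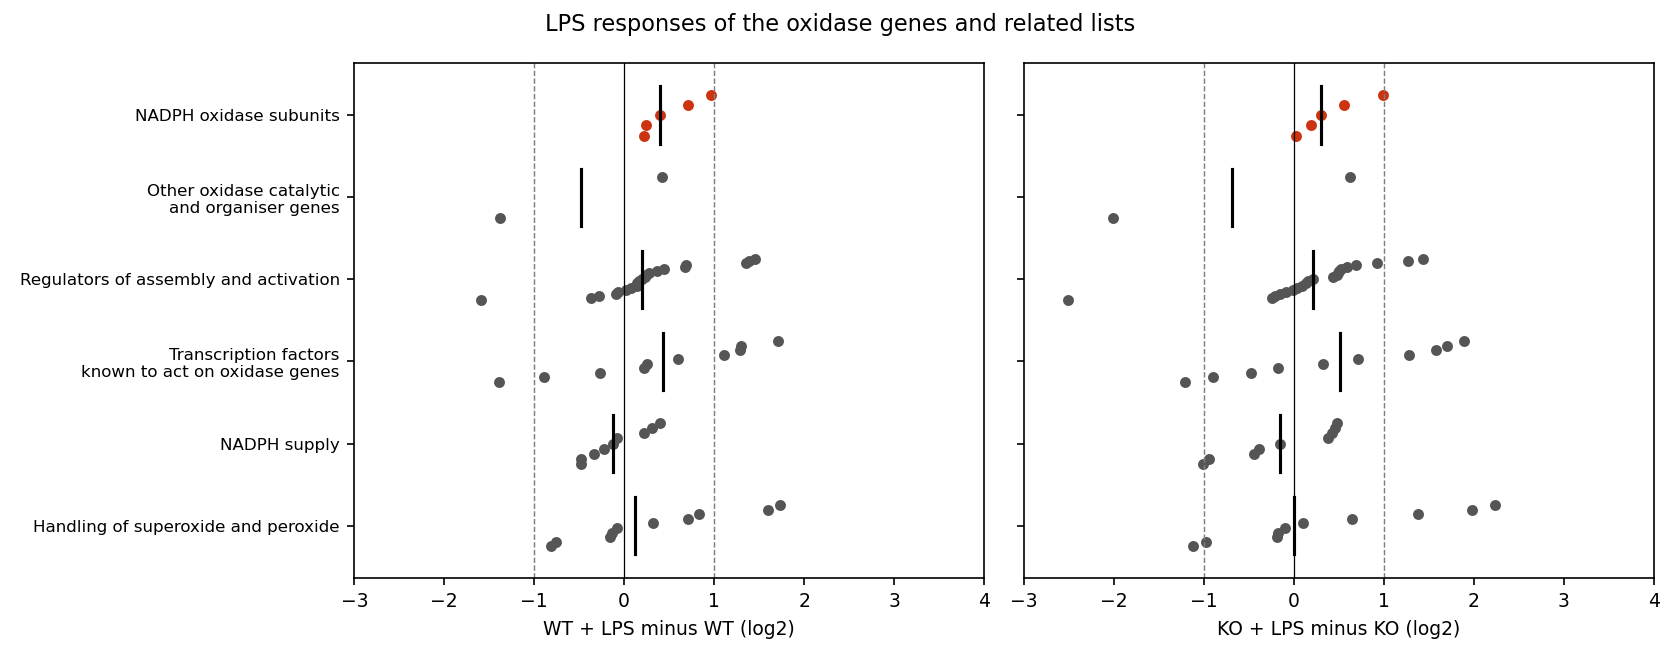
LPS responses (log2) of the 5 oxidase genes, in red, and of the genes of 5 related lists, in grey, in wild type (left) and knockout (right), drawn only for genes above background on all 4 arrays. Each dot is 1 gene by its representative probe, vertical bars are the medians of the dots shown, and dashed lines mark 2-fold; the oxidase genes lie between 0.02 and 0.99, and the transcription factor list reaches 1.71 in wild type with Nfkb1.

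Of 11 transcription factors known to act on oxidase genes, 10 could be compared, with 4 higher and 1 lower with LPS in each genotype and medians of 0.43 and 0.52. The shares over all genes were 9.69% higher and 8.58% lower in wild type and 11.0% and 12.5% in knockout. In the additive model 4 of 10 rose and 2 fell, beside 11.3% of all genes in each direction. Nfkb1, a subunit gene of NF-kB, had responses of 1.71 and 1.70 (limma adjusted p = 0.0247), Cebpb 1.28 and 1.58 (limma adjusted p = 0.0295) and Tfec 1.11 and 1.27 (limma adjusted p = 0.0300). Irf8, which with PU.1 drives Cybb in myeloid cells, had 1.30 and 1.89 (limma adjusted p = 0.0341), with 0.48 and 0.79 at its other probe. Cebpa fell, with -1.39 and -1.21 (limma adjusted p = 0.0291), as did Cebpe, with -0.90 and -0.90 (limma adjusted p = 0.0352). Spi1, which encodes PU.1, had 0.26 and 0.71 and did not pass (limma adjusted p = 0.141).

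The enzymes that supply NADPH, the fuel of the oxidase, and those that handle its products were read next. Of 9 genes that supply NADPH, 0 were 2-fold different with LPS in wild type and only Idh1 in knockout (-1.02, with -0.19 at its other probe), and none passed the LPS test of limma. Their responses in wild type ran from -0.48 to 0.40, with a median of -0.13, and the median in knockout was -0.16. Other probes of these genes gave larger values: 1.22 and 1.45 for Nadk, from -3.66 to 1.27 in knockout over the probes of Pgd, and down to -1.80 in knockout for Nnt. G6pdx, which opens the pentose phosphate pathway, had 0.40 and 0.45 (limma adjusted p = 0.0946). Me1, the cytosolic malic enzyme, was 1.06 higher in LPS-treated knockout than in LPS-treated wild type (limma adjusted p = 0.398 for the genotype term). Of 12 genes that handle superoxide and peroxide, 10 could be compared, with medians of 0.12 and 0.00, and 4 rose and 2 fell with LPS in the additive model, beside 11.3% of all genes in each direction. Sod2, the mitochondrial superoxide dismutase, had responses of 1.60 and 2.24 (limma adjusted p = 0.0314), and Prdx5, a peroxiredoxin, 1.73 and 1.98 (limma adjusted p = 0.0254). Prdx1 and Txnrd1 also rose, and the glutathione peroxidases Gpx1 (-0.75 and -1.12, limma adjusted p = 0.0459) and Gpx4 (-0.82 and -0.98, limma adjusted p = 0.0375) fell.

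For each member, the 3 genes nearest in pattern were found by the root-mean-square difference of the 4 scaled levels, each taken from its own mean, over 11886 genes with a symbol. Nearest to Cybb were Gabarapl1, at 0.021, Ankrd50, at 0.026, and Dnajb6, at 0.031, and 73 genes lay within 0.1. Nearest to Rac2 were Washc4, Unc93b1 and Dnaja1, with 302 genes within 0.1. The flatter members had more near genes: 443 for Cyba, led by Ralb, Rsl1 and Klhl11, 468 for Ncf1, led by Zfyve21, Fbxl15 and Cngb1, and 550 for Ncf4, led by AV051173, Hk1os and 1700052K11Rik. Between the members themselves, Cyba and Ncf4 were the closest pair, at 0.116, and Cybb and Ncf4 the farthest, at 0.480. The distances of the 3 nearest genes of each member were smaller than the spot SD of bright probes, 0.047 to 0.097, so their rank is not resolved. AV051173, Cngb1 and Klhl11 had scaled levels below 0, where that SD is wider. With 4 arrays, such distances describe these arrays alone.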

How the data were processed

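Total RNA of 4 samples of RAW264.7 cells was hybridised with Cy3 to Agilent mouse arrays of design 074809, on 1 slide with 1 scan time, per the labels and the file headers. Each array had its own place on the slide, so place and group cannot be told apart. Per the file headers, the deposited values are linear spot intensity, background subtracted and detrended by Feature Extraction 10.7.1.1, while the submitters' processing notes name version 9.5.1.1. The deposited flags, a unit of the type other, are 0 or 1 for background, saturation and outliers. The deposited series table, also intensity, was an alternative.

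Control and outlier spots (between 90 and 149 outliers an array) were left out, spots of a probe averaged, log2 taken and the 75th percentile over probes subtracted. Of 56605 probes, 32989 (58.3%) were named by accession in a table of GRCm38.p6, 519 by an older symbol and 23097 as in the file. The representative probe was above background, then brightest. Where 1 of 2 arrays was dim, its own signal or, if higher, the lowest one flagged as well above background on that array was used, which gives a bound ("at least"). Both arrays below background gave no value.

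The members, the lists and the rule for named genes (members, Hsd17b4, list genes called or needed for a range, 3 nearest genes) were chosen with earlier results of these data known, and so support nothing on their own. Some list genes are not reported here and were left out of the lists' counts and medians. The additive fit used limma 3.58.1 in R 4.3.3, with Benjamini-Hochberg adjustment over genes detected on 2 or more arrays. Python 3.11.15 was used elsewhere, with numpy 2.4.6, pandas 2.3.3 and matplotlib 3.10.9. Alternatives were normexp (offset 50), quantile normalization, other percentiles, 7 spike-in probes, the series table, the mean of a gene's probes, no filter, 1.5-fold, and, in the fit, genes above background on all 4 arrays or a trended prior. The percentile over spots and the use of any probe of a gene were added after the data were seen. The fit and the call rule were run on simulated data simpler than these arrays. For the additive fit, every gene had normal noise of SD 0.147 and no difference between the LPS responses. The fit recovered 100% of LPS changes at each log2 size of 1, 2, 3 and 4. It called 9 unchanged genes of 17365. For the call rule, every gene had the spot SD of bright probes. The rule for the LPS response of wild type called 0% at 0.5 and 100% at 1.5, 2 and 3. It called 0 unchanged genes among those above background on all 4 arrays. These figures give no error rate for dim genes or for genes whose LPS responses differ between genotypes. How the rule acts between 0.5 and 1.5, near its threshold of 1, was not tested. Genes below background on both arrays get no value and so cannot be called.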

Additional observations from a re-analysis of the deposited data

Results flagged for a closer look

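For 2 probes the difference between knockout and wild type had opposite signs without and with LPS. With 1 array per group that difference of signs was not tested. Rac2 differed by 0.053 without LPS and by -0.094 with LPS, each less than 1 technical SD. The dim Cyba probe A_55_P2736580 differed by -0.13 without LPS and by 0.084 with LPS, at signals between 37.8 and 52.3 and with technical SDs of 0.284 and 0.442.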

How the results depend on the processing

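No paired analysis was possible because each group had 1 array and the labels give no replicate numbers, and the additive fit already compares LPS within each genotype. In wild type, 0 members passed the 2-fold rule for LPS, but 1 did with the mean of a gene's probes, 2 at 1.5-fold and 2 when any probe counted. In knockout 0 became 1, 1 and 1 under the same settings. The LPS term of limma called 1 member, and 3 with a trended prior, 2 with genes above background on all 4 arrays and 2 with normexp. Member counts of the other comparisons and of the genotype term were the same under each alternative run. For Ncf4 and Rac2, with a single probe each, the mean of probes repeats the main value. Of 175 member differences under alternatives, 134 moved by less than 1 technical SD and 10 changed sign or reached 0. These were the knockout LPS responses of Ncf4 (4 of 7 alternatives) and Ncf1 (-0.03 with spike-in centring), the untreated genotype difference of Rac2 (3 of 7, down to -0.01), and the difference of responses of Cyba (0.04 with the mean of its probes) and Ncf1 (0.01 with normexp). The LPS response of Cybb stayed between 0.75 and 1.004 in wild type and between 0.76 and 1.07 in knockout.

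Over genes above background on all 4 arrays, spike-in centring moved the median LPS response from 0.02 to -0.19 in wild type and from 0.03 to -0.19 in knockout. It moved the share of higher genes among those called from 53.1% to 37.2% in wild type, from 46.9% to 32.2% in knockout and from 49.9% to 31.9% in the LPS term. Counts of all genes called 2-fold were 3325 for the LPS response of wild type (2072 with normexp, 6249 with no filter, 6397 at 1.5-fold), 4321 for knockout (2757, 7438, 7824), 1283 between untreated genotypes (524, 4107, 2716; 2086 with the mean of probes), 1108 between LPS-treated genotypes (433, 3594, 2812; 1745 with the mean of probes) and 714 for the difference of responses (375, 5787, 2167). With no filter, 47.1% of those 5787 genes were larger in knockout, beside 36.7% in the main setting. The LPS term called 3919 genes, against 6440 under the trended prior and 6111 under normexp. The genotype term called 0, against 86 and 58 under these and 11 for genes above background on all 4 arrays. The cause of these shifts was not tested. The signals of dim probes limit what can be said of them, and 1 array per group limits all differences.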
